A study of Mus musculus with 20 samples.

Results

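Mouse hippocampal neurons in dissociated culture were exposed for 24 h, from day 21 in culture, to vehicle or to an antagonist of the NMDA receptor, and total RNA was profiled on 20 arrays of 2 colours. The comparison described here is that of 100 µM AP5 with 100 nM NVP-AAM077 (NVP), taken from the 10 arrays whose titles carry those names, 5 for each compound, out of 20 in the series. The other arrays, 5 with vehicle (called control) and 5 with 1 µM Ro25-4891 (Ro25), entered the same fit and serve as background. All 4 groups share the kind of culture, its age and the exposure time; the labels give no genotype, strain or age of the animals, and they do not state whether each array had its own culture or animal. The p-values therefore rest on a spread among samples that could be purely technical. The compounds differ in dose as well as in identity, so that compound and dose cannot be told apart.

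NMDA receptors are glutamate-gated channels that pass calcium when the membrane is depolarised at the same time. They are assembled from an obligatory Grin1 subunit and further subunits, mainly Grin2a and Grin2b in hippocampal neurons. AP5 competes with glutamate at NMDA receptors of all these kinds, whereas NVP competes at the same site and prefers receptors that hold Grin2a. Calcium that enters through the receptor acts through calmodulin-dependent kinases and the ERK kinase cascade on transcription factors such as CREB, SRF and MEF2, and these switch on immediate early genes within minutes and a later set of genes for secreted and synaptic proteins over hours.

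Each value is the log2 ratio of a gene's signal in the sample (Cy5) to that in a common mouse reference RNA (Cy3), so 1 unit is a 2-fold difference, and a value compares arrays for the same gene but not different genes. A gene was called where the difference AP5 minus NVP had a limma p under 0.05 after Benjamini-Hochberg adjustment over all 19338 genes tested. The neuronal label held: all 18 tested pan-neuronal markers were well above background on all 20 arrays. So were all 25 astrocyte markers, which places glial RNA in the same samples, and in bulk RNA fewer cells of a type and less RNA per cell cannot be told apart.

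AP5 array 1 stood apart from the other 4 AP5 arrays. Its mean over the pan-neuronal markers was 3.82, against 4.39 to 4.49 on the others. Over the astrocyte markers it was 2.31 against 3.25 to 3.54, and over the GABA-A receptor subunits 3.12 against 4.11 to 4.23. These lists of neural genes were thus low on that array, while its means over immediate early, ERK feedback and cell cycle genes lay close to those of the other AP5 arrays. It was scanned on the second of 3 scan days together with a Ro25 array, and AP5 array 3 on the third day alone. Counts of called genes are therefore given with and without AP5 array 1.

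**Figure D1:**
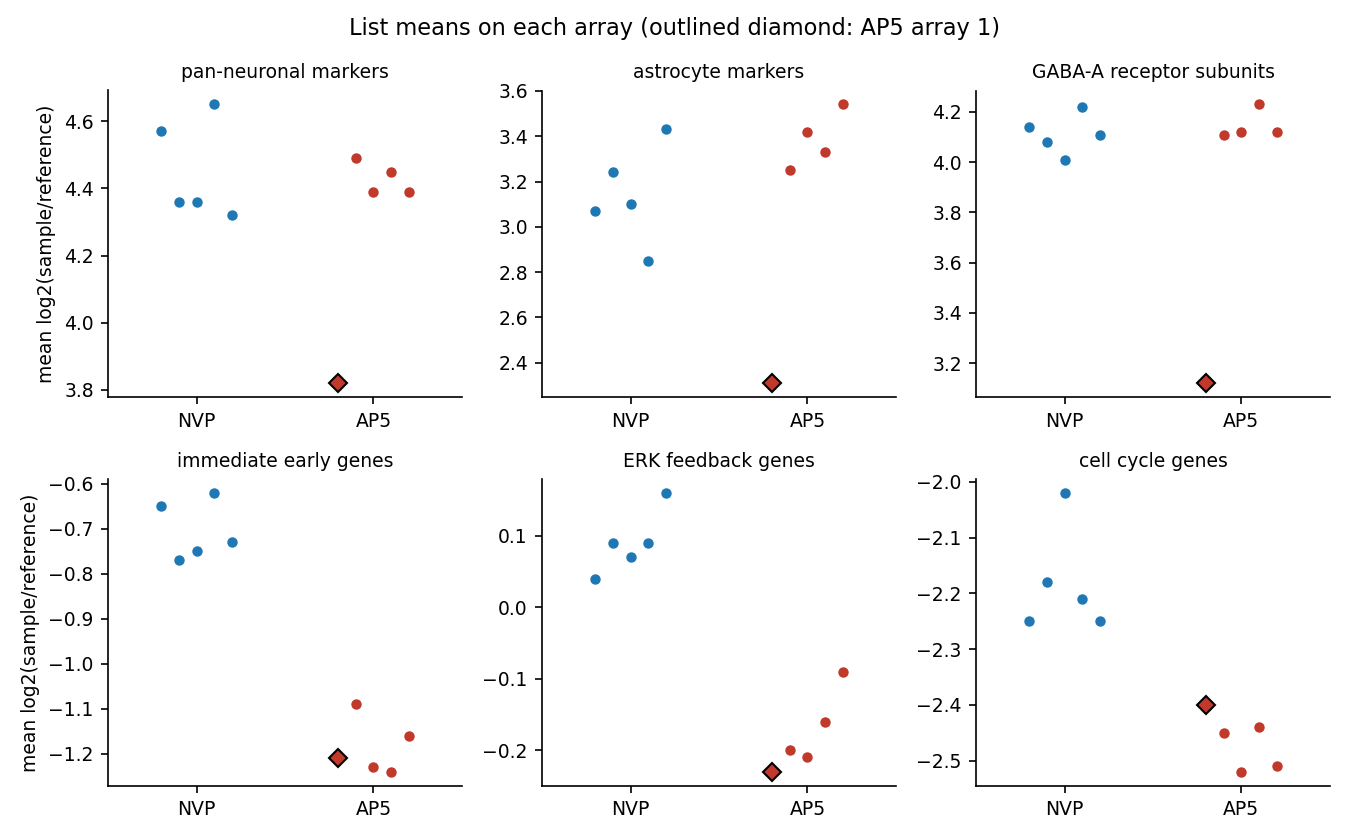
Mean log2 ratio of sample to reference over the tested members of 6 gene lists, 1 point per array, for the 5 NVP and the 5 AP5 arrays, with AP5 array 1 as an outlined diamond. AP5 array 1 lies below every other array for the neuronal, astrocyte and GABA-A receptor lists, whereas all 5 AP5 arrays lie below all 5 NVP arrays for the immediate early, ERK feedback and cell cycle lists.

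The slide is the second feature to keep in view. The 20 arrays lay on 7 slides, and only slide 2 held both compounds, with AP5 array 5 beside NVP arrays 2, 3 and 4. With slide as a block in the fit, the difference rests on AP5 array 5 and, through the Ro25 arrays, on AP5 array 1. The median standard error rose from 0.0961 to 0.140, and the text says where a gene chosen by the naming rule lost its call with this block.

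Of 19338 genes, 1118 (5.78%) differed between the compounds, 520 (2.69%) being higher and 598 (3.09%) lower with AP5. The median size of the called differences was 0.385, and 3483 genes had an unadjusted p under 0.05. Differences of at least 2-fold were found in 38 called genes, of which 35 were lower and 3 higher with AP5. At a size of at least 1.5-fold there were 221, of which 149 were lower and 72 higher. In 877 of the 1118 called genes no AP5 array overlapped an NVP array, and over all 19338 genes this was so in 1345 (6.96%). The calls rest on the same arrays, so the lack of overlap adds no support to them. Without AP5 array 1 the count of called genes was 1040, 555 higher and 485 lower, and 881 of those were among the 1118. With slide as a block 108 genes (0.558%) were called, 34 higher and 74 lower, 106 of them among the 1118, and all 1118 kept their direction. With each array centred on its median in place of loess, 121 were called, 37 higher and 84 lower, so that the higher share of calls moved from 46.5% to 30.6%. In the fit with loess and no block, 1183 genes (6.12%) differed between AP5 and control, and 0 between NVP and control (0%, with 1136 at an unadjusted p under 0.05); these comparisons share arrays with each other and with the main one.

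**Figure D2:**
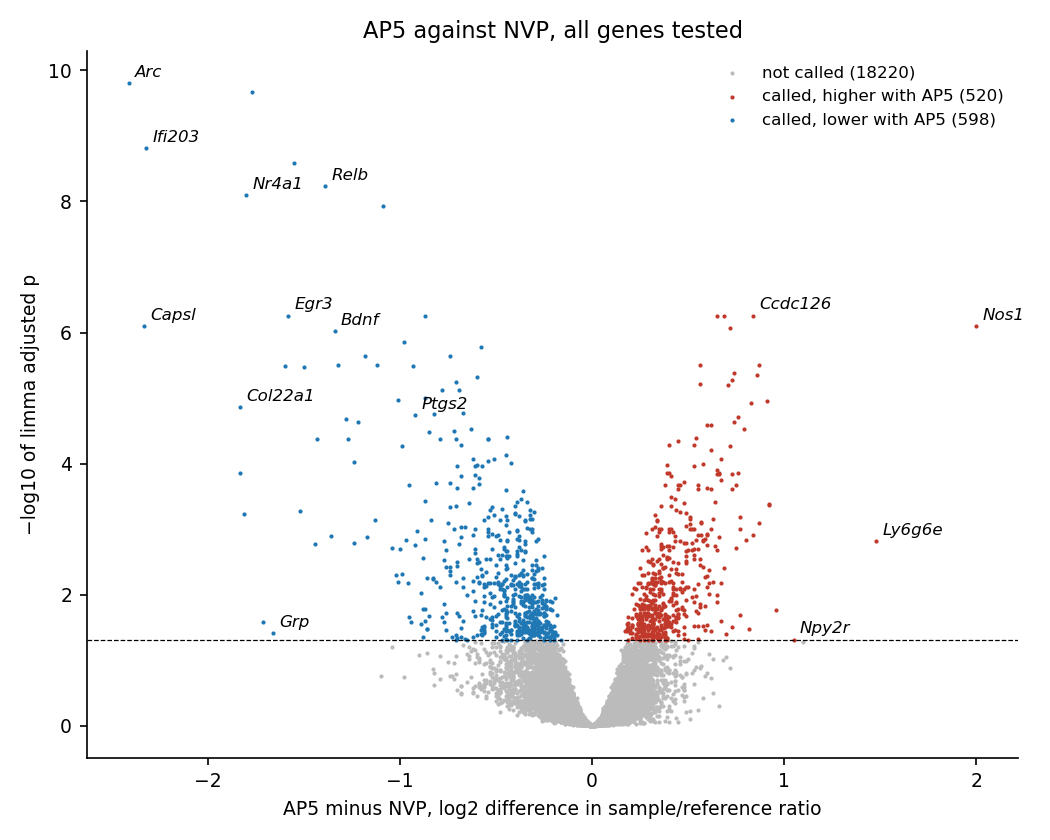
Difference between AP5 and NVP (log2, x axis) against −log10 of the limma adjusted p (y axis) for the 19338 genes tested, with the threshold as a dashed line and called genes in colour. The 598 genes lower with AP5 reach further from 0 than the 520 higher ones, apart from Nos1 at 2.00.

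Immediate early genes, the first genes that synaptic activity switches on, held the largest fall, that of Arc. Of 34 tested members, 13 were called lower and 0 higher with AP5 (38.2%, beside 5.78% of all genes). The median difference was −0.27 beside −0.0011 over all genes tested. Without AP5 array 1 the count was again 13 lower and 0 higher, and with slide as a block 8 members were called. The list's mean ranged from −1.24 to −1.09 on the AP5 arrays and from −0.77 to −0.62 on the NVP arrays, with control arrays at −0.67 to −0.46.

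Arc, whose protein acts on AMPA receptor endocytosis at the synapse, stood at 0.21, 0.95, 0.10, 0.15 and 0.36 on AP5 arrays 1 to 5. On NVP arrays 1 to 5 it stood at 2.75, 2.64, 2.80, 2.90 and 2.76. Every AP5 array was thus below every NVP array, and the NVP arrays lay just under the control mean of 3.00 ± 0.06 (SD, n = 5). The difference was −2.41 (SE 0.12, 95% interval −2.66 to −2.17), a 5.33-fold lower ratio with AP5 (limma adjusted p = 1.55e-10). Blocking on slide gave −2.46 (adjusted p = 5.10e-05).

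Nr4a1 encodes an orphan nuclear receptor induced by calcium signals. Its AP5 arrays read −2.85, −2.55, −2.96, −2.72 and −2.49, and its NVP arrays −0.75, −1.06, −1, −0.94 and −0.83. Here too the groups lay apart, by −1.80 (SE 0.12, 3.47-fold, limma adjusted p = 8.03e-09), and the NVP mean of −0.92 ± 0.12 was between those of AP5 (−2.71 ± 0.20) and control (−0.40 ± 0.27; SD, n = 5 each).

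Egr3, a zinc-finger transcription factor, read 0.79, 0.90, 1.06, 0.65 and 0.80 with AP5 and 2.43, 2.38, 2.11, 2.73 and 2.48 with NVP. The groups did not overlap, and the difference was −1.58 (SE 0.14, limma adjusted p = 5.50e-07). Of its 2 probes both were lower and 1 was called. Its relative Egr1 read −2.89, −3.14, −3.61, −3.82 and −3.70 with AP5 and −1.82, −2.04, −2.32, −1.79 and −2.04 with NVP, a difference of −1.43 (SE 0.18, adjusted p = 4.21e-05). Every AP5 value of Egr1 was again below every NVP value, though AP5 arrays 1 and 2 were nearer to the NVP arrays than the other 3.

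Npas4, a transcription factor that responds to neuronal depolarisation and calcium, was well above background on 0 of 5 AP5 arrays and on 5 of 5 NVP arrays. Its ratios of 0.05, 0.14, 0.02, −0.12 and −0.21 with AP5 are therefore only upper limits, against 1.28, 1.03, 1.11, 1.31 and 0.75 with NVP. It was at least 2.17-fold lower with AP5 (limma adjusted p = 3.1e-06, 0.00278 with slide as a block). Such a bound leaves out sampling error, and the 95% interval of the fitted Npas4 difference was −1.35 to −0.89. The bound is the smaller of the fitted difference, which it equals for Npas4, and a second measure. That measure sets the bright group's mean against the lowest signal that counts as above background, or the probe's own where that is higher, in the sample channel after scaling between arrays, and it is open to dye bias because dyes were not swapped.

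Fos, which marks recent firing, did not pass. It read −3.53, −3.44, −3.21, −3.37 and −2.42 with AP5 and −2.74, −2.7, −2.95, −3.1 and −1.75 with NVP, and the difference of −0.55 (SE 0.30, limma adjusted p = 0.354) turned to 0.16 with slide as a block. Array 5 was the highest in each of the 4 groups, and the AP5 and NVP groups overlapped. Each AP5 array was nevertheless below the NVP array of the same number. With the number in the titles as a block Fos was called (limma adjusted p = 0.0115), but the numbers were not taken as a pairing. Other members, picked here after their values were seen, were called lower, with differences of −1.44 for Egr4, −0.93 for Gadd45b, −0.79 for Nr4a2, −0.59 for Junb and −0.56 for Klf10. Fosb (−0.06), Jun (0.19) and Homer1 (−0.15) did not pass.

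**Figure D3:**
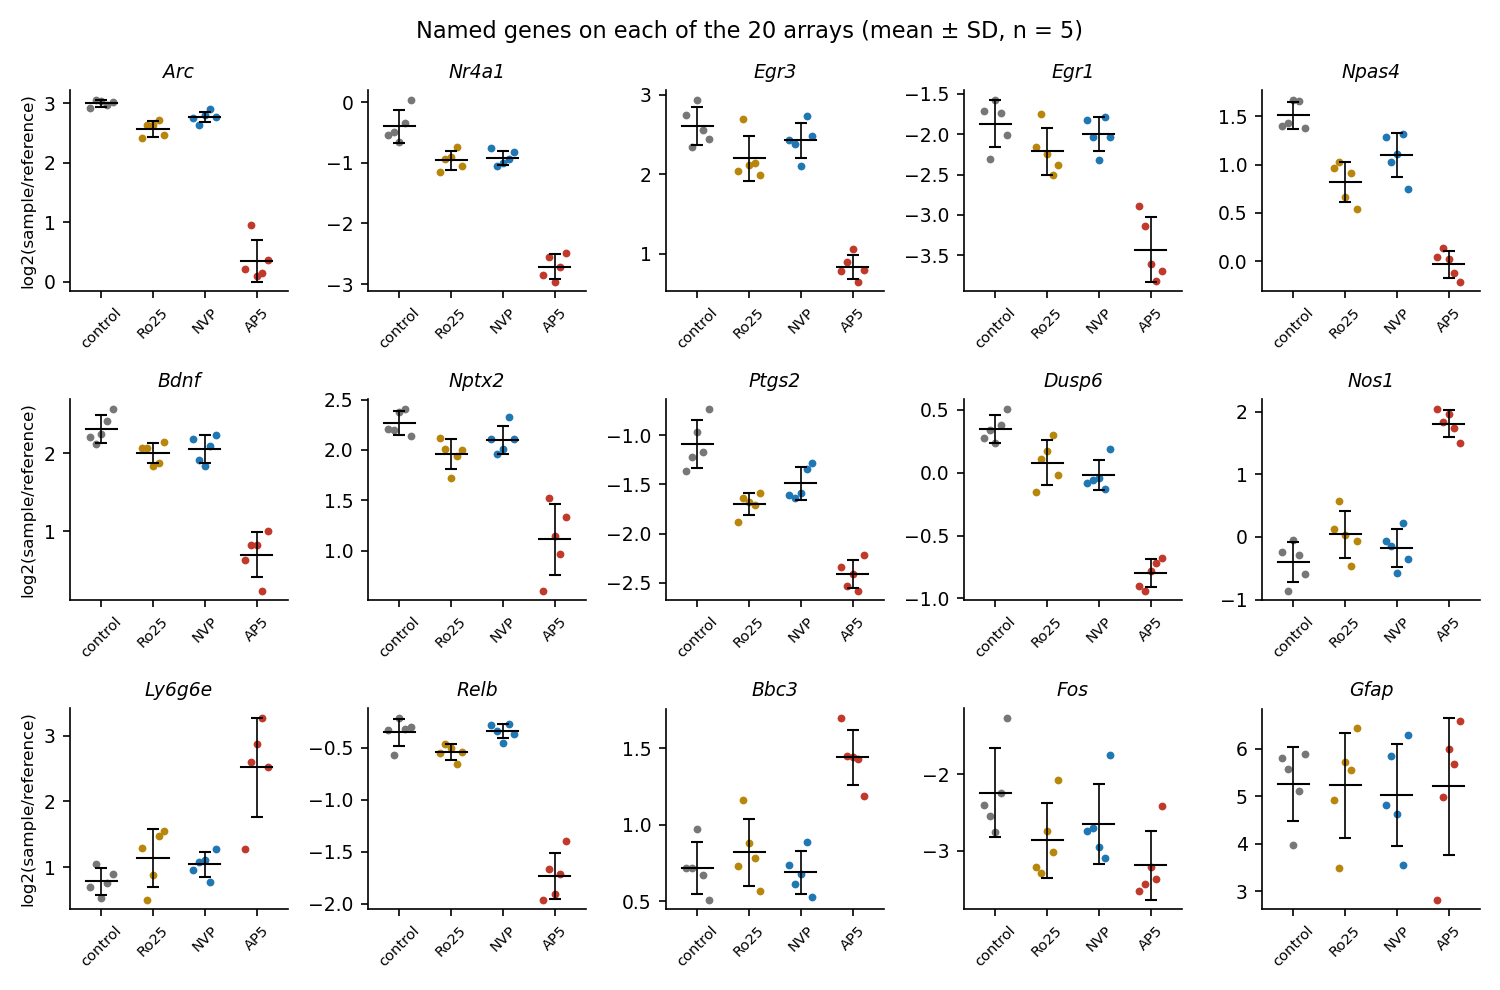
Log2 ratio of sample to reference (y axis, its range differing between panels) for 15 named genes on the 20 arrays, 1 point per array in replicate order, with the group mean as a bar and the SD as whiskers (n = 5 per group). For Arc, Nr4a1, Egr3, Egr1, Bdnf, Ptgs2, Dusp6 and Relb the AP5 arrays form a separate low cluster, for Nos1 a high one, and for Fos and Gfap the groups overlap.

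CREB binds the cyclic AMP response element TGACGTCA and also its shorter core TGACG, which lies within the full element, SRF binds the CArG box, and the EGR proteins bind GCGNGGGCG with G or T at the open position. These motifs were searched on both strands of the 250 bases upstream of annotated start sites, for the 6 called activity-regulated genes with the lowest p among the largest and the preselected genes (Arc, Nr4a1, Egr3, Bdnf, Npas4 and Ptgs2). RefSeq starts of GRCm38.p6 were at hand for 4 of the 6. Windows with a match are shown for Nr4a1, Npas4 and Bdnf, so that the letters behind each count can be seen, 5′ to 3′ on the strand of the gene with matches in capitals (the core reads CGTCA where it lies on the other strand).
Nr4a1, chr15:101266596-101266845, plus strand: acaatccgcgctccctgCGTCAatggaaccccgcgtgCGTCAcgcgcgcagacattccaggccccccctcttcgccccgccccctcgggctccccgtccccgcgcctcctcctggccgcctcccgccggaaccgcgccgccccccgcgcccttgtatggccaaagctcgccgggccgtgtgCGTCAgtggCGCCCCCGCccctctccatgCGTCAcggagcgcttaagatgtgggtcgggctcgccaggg
Npas4, chr19:4989972-4990221, minus strand: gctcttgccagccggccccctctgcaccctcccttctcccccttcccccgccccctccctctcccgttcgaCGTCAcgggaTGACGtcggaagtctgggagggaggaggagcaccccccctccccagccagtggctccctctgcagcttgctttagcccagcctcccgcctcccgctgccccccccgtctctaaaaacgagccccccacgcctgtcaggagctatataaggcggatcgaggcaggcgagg
Bdnf, the third of 7 starts, chr2:109692186-109692435, plus strand: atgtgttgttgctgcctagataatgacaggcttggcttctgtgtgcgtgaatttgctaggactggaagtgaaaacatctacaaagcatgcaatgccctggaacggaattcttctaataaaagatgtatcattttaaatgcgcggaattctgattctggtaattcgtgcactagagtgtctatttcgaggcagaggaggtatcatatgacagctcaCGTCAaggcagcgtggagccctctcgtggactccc
Nr4a1 held 4 matches to the core and 1 EGR site, and Npas4 held 2 matches to it. The third Bdnf start held 1 core match and the other 6 Bdnf starts held 0, as did Ptgs2. Among all 32851 promoter windows of this length, 17.8% held the core, 3.06% an EGR site, 1.55% the full element and 1.47% a CArG box. Neither the full element nor a CArG box was found in any of the windows of these 4 genes that were searched. A match describes letters and not binding, and a window without one says only that these letters were not in it.

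Genes of the later activity-regulated wave followed the same direction in part. Of 36 tested, 12 were called lower and 1 higher (36.1%, beside 5.78% of all genes), with a median difference of −0.27. Without AP5 array 1 there were 10 lower and 1 higher and the median was −0.14. With slide as a block 5 were called. The member called higher was Plk2 (0.48, limma adjusted p = 0.0082), a polo-like kinase of dendritic spines, while its relative Plk3 was lower (−0.82, SE 0.09, adjusted p = 1.73e-05).

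Bdnf, the neurotrophin whose release depends on activity, read 0.63, 0.82, 0.83, 0.24 and 1.01 with AP5 and 2.18, 1.91, 1.83, 2.09 and 2.23 with NVP. The groups did not overlap, and AP5 array 4 was the lowest. The ratio was 2.54-fold lower with AP5 (−1.34, SE 0.12, 95% interval −1.60 to −1.09, limma adjusted p = 9.57e-07), and both of its probes were called. The blocked difference was −1.17 (adjusted p = 0.0222).

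Ptgs2, the inducible cyclooxygenase and the gene named in the series title, read −2.34, −2.53, −2.41, −2.58 and −2.22 on AP5 arrays 1 to 5 and −1.61, −1.64, −1.59, −1.34 and −1.28 on NVP arrays 1 to 5. All AP5 arrays were below all NVP arrays, and the NVP mean (−1.49 ± 0.17) lay between the AP5 mean (−2.41 ± 0.14) and the control mean (−1.09 ± 0.24; SD, n = 5 each), with Ro25 at −1.70 ± 0.11. The difference was −0.92 (SE 0.11, 95% interval −1.14 to −0.70, limma adjusted p = 1.81e-05), that is 1.89-fold lower with AP5. For this gene alone the exact two-sided permutation test gave p = 0.00794, the smallest that the 252 assignments of 10 arrays allow. With slide as a block the difference was −0.76 and did not pass across all genes (adjusted p = 0.0826), within slide 2 it was −0.69, and among arrays of the first scan day −0.95. With median centring in place of loess it was −0.89 and did not pass either. Of 16 tested genes of prostaglandin synthesis and reception 1 (6.25%, beside 5.78% of all genes) was called, Ptgs2, and 1 without AP5 array 1. The constitutive cyclooxygenase Ptgs1 (0.25, SE 0.26), the prostaglandin E synthase Ptges (−0.02, SE 0.14) and the receptor gene Ptger4 (0.26, SE 0.12) did not pass.

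Nptx2, a secreted pentraxin that gathers AMPA receptors, read 0.60, 1.52, 1.14, 0.97 and 1.33 with AP5 and 2.11, 1.96, 2.01, 2.33 and 2.11 with NVP. AP5 array 1 was the lowest, the groups did not overlap, and the difference was −0.99 (SE 0.13, limma adjusted p = 5.30e-05). Pcsk1, a convertase that trims prohormones, was lower, at −1.17 (SE 0.21, limma adjusted p = 0.00132), and at −0.90 without AP5 array 1 (adjusted p = 8.30e-05); with slide as a block it was −1.10 and not called (adjusted p = 0.106). Rgs2, which limits Gq signalling, was lower, at −0.87 (SE 0.10, adjusted p = 9.83e-06). Pthlh, a parathyroid hormone-like peptide, had a large difference of −1.71 but a wide error (SE 0.45, adjusted p = 0.0261), and NVP arrays 1 and 5 (4.07 and 3.66) were well above the other 3. AP5 array 2 lay within the NVP range. Its call was lost without AP5 array 1 (−1.49, adjusted p = 0.0656) and also without AP5 array 3 or 4 or NVP array 1 or 5. Adcyap1, which encodes the peptide PACAP, differed likewise (−0.95, SE 0.24, adjusted p = 0.022), and its call was lost without AP5 array 1 or 4 or NVP array 1 or 5. Neither Pthlh nor Adcyap1 was called with slide as a block (adjusted p = 0.33 and 0.393).

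The ERK feedback list, of genes that ERK signalling induces and many of which in turn restrain it, had the most negative median, −0.31 over 18 tested. Of these, 8 were called lower and 2 higher (55.6%, beside 5.78% of all genes). The numbers were the same without AP5 array 1, and 1 was called with slide as a block. Dusp6, a phosphatase that removes phosphate from ERK in the cytoplasm, read −0.90, −0.94, −0.78, −0.72 and −0.68 with AP5 and −0.08, −0.06, −0.04, −0.13 and 0.19 with NVP. The AP5 arrays were tightly grouped and all below the NVP arrays, of which array 5 was the highest. The difference was −0.78 (SE 0.08, limma adjusted p = 7.57e-06). With the slide block it was −0.69 and just missed the threshold (adjusted p = 0.0508). Its nuclear relative Dusp4 was lower, at −0.95 (SE 0.14, adjusted p = 2.09e-04; 0.179 with the block), Phlda1 at −0.72 (SE 0.12, adjusted p = 0.00101; 0.139 with the block) and Spred3, an inhibitor of Ras-dependent ERK activation, at −0.66 (SE 0.11, adjusted p = 9.16e-04; 0.0477 with the block). The 2 members called higher, picked after their values were seen, were Dusp14 (0.55) and Spred1 (0.30), the latter a relative of Spred3. The transcription factor genes Etv4 (−0.02) and Etv5 (−0.30) did not pass.

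None of the receptor's own genes passed. Of 7 tested NMDA receptor subunit genes 0 were called (0%, beside 5.78% of all genes), also without AP5 array 1, and the median difference was −0.23. A difference below 0 was measured in 6 of the 7, and in 50.4% of all genes. So short a list cannot show a share below that of all genes. Grin1, the obligatory subunit, differed by −0.23 (95% interval −0.59 to 0.13), and Grin2a, the subunit whose receptors NVP prefers, by −0.31 (−0.58 to −0.03, limma adjusted p = 0.215 over all genes). Grin2b differed by −0.12 (−0.57 to 0.34), a value that turned to 0.01 without AP5 array 1. Among 20 AMPA, kainate and metabotropic glutamate receptor genes, 1 (5%, beside 5.78% of all genes) was called, Grm8 (−0.40, limma adjusted p = 0.0189). The Grm8 call was lost without NVP array 2 and with slide as a block (adjusted p = 0.359). Without AP5 array 1, 1 gene of this list was called in each direction. Of 13 GABA-A receptor subunits, 27 synaptic vesicle and SNARE genes and 25 calcium, sodium and HCN channel genes, 0 were called. The share was thus 0% in each list, beside 5.78% of all genes. The same fit without AP5 array 1 called 0, 1 and 0. The medians of these lists, −0.16, −0.14 and −0.12, moved to 0.03, −0.04 and −0.08 without that array.

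Among 23 postsynaptic scaffold and signalling genes, 1 was called in each direction (8.7% together, beside 5.78% of all genes), also without AP5 array 1. Itpka, an inositol trisphosphate kinase bound to actin in dendritic spines, read 2.95, 3.33, 3.33, 3.28 and 3.1 with AP5 and 3.90, 3.76, 3.79, 3.87 and 3.67 with NVP. The groups did not overlap, the difference was −0.60 (SE 0.08, limma adjusted p = 1.04e-04), and it was called with slide as a block as well (−0.70, adjusted p = 0.00399). Camk2g, a subunit of calmodulin-dependent kinase II, was higher with AP5 by 0.33 (SE 0.05, adjusted p = 6.07e-04; 0.125 with the block).

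Potassium channels, which set resting potential and repolarisation, included 6 called lower and 0 higher among 32 tested (18.8%, beside 5.78% of all genes). The median of −0.21 became −0.07 without AP5 array 1, again with 6 lower. Kcnh3, a channel of the ether-a-go-go family, read 0.35, 0.75, 0.88, 0.76 and 0.83 with AP5 and 1.16, 1.20, 1.34, 1.37 and 1.31 with NVP. AP5 array 1 was the lowest by far, and the other 4 were still below every NVP array. Its difference was −0.56 (SE 0.09, limma adjusted p = 7.38e-04), and −0.47 without AP5 array 1 (adjusted p = 8.80e-04). Kcnn1, a small-conductance calcium-activated channel, differed by −0.75 (adjusted p = 7.95e-04), the silent modifier Kcnv1 by −0.77 (adjusted p = 0.00153) and the M-current subunit Kcnq3 by −0.45 (adjusted p = 0.00215). Kcnq3 was well above background on 1 AP5 array and on 5 NVP arrays. Of these 4 genes, Kcnh3 was called with slide as a block (adjusted p = 0.0451).

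Nos1, the neuronal nitric oxide synthase that is tethered to NMDA receptors, was the gene most increased with AP5 relative to NVP. It read 2.05, 1.83, 1.96, 1.74 and 1.5 on AP5 arrays 1 to 5 and −0.07, −0.14, −0.57, 0.22 and −0.35 on NVP arrays 1 to 5. The lowest AP5 array, number 5, was still above the highest NVP array by more than the spread within either group. The ratio was 3.99-fold higher with AP5 (2.00, SE 0.18, 95% interval 1.62 to 2.37, limma adjusted p = 8.08e-07). Blocking on slide gave 1.68 (adjusted p = 0.00638). Of 11 tested genes of nitric oxide and cyclic GMP signalling, 2 were called higher and 1 lower (27.3%, beside 5.78% of all genes). Without AP5 array 1 it was 1 each. Dynll1, a dynein light chain that binds Nos1, was lower, at −0.40 (SE 0.06, adjusted p = 5.85e-04; 0.0627 with the block). Nos3, the endothelial enzyme, was higher, at 0.25 (SE 0.06, adjusted p = 0.0275), a call lost when any of AP5 arrays 1, 2 or 3 or NVP arrays 1 to 4 was left out and with slide as a block (adjusted p = 0.533). The subunits of soluble guanylate cyclase, the receptor for nitric oxide, did not pass: Gucy1a1 stood at −0.83 (SE 0.31) and Gucy1b1 at −0.41 (SE 0.19).

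Besides Nos1, 2 genes were at least 2-fold higher with AP5. Ly6g6e, a lipid-anchored surface protein of the Ly6 family, read 1.28, 2.61, 2.88, 3.28 and 2.53 with AP5 and 0.95, 1.08, 1.11, 0.77 and 1.28 with NVP. AP5 array 1 only touched the top of the NVP range, and the difference of 1.48 (SE 0.26, limma adjusted p = 0.00153) was 1.79 without it (adjusted p = 8.89e-06). Npy2r, a receptor for neuropeptide Y, differed by 1.05 (SE 0.31, adjusted p = 0.0487), with AP5 array 1 at 1.31 among the NVP values and the other 4 at 2.54 to 3.54. Without AP5 array 1 the Npy2r difference was 1.39 (adjusted p = 0.00133), and its call was lost when any of AP5 arrays 2 to 5 or NVP arrays 1 to 4 was left out and with slide as a block (adjusted p = 0.354).

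The other large rises were between 1.79-fold and 1.94-fold. Upf2, a factor of nonsense-mediated mRNA decay, read −0.27, −0.51, −0.30, −0.59 and −0.70 with AP5 and −1.34, −1.37, −1.47, −1.36 and −1.36 with NVP (0.91, SE 0.10, limma adjusted p = 1.10e-05). All of its 4 probes were higher and 2 were called, and it was not called with the series table of values that the authors deposited. Ccdc126 differed by 0.84 with the smallest error of the 12 largest rises (SE 0.07, adjusted p = 5.50e-07), and both of its probes were called. The Ras-like gene Rasl11b (0.87, SE 0.14), Fam107b (0.87, SE 0.09) and Inpp5k, an inositol polyphosphate phosphatase (0.86, SE 0.09), were also called with slide as a block (adjusted p = 0.03, 0.0032 and 0.0367). Nod1, a cytosolic sensor of bacterial peptidoglycan (0.92, SE 0.14), C2cd4c (0.84, SE 0.15) and the unnamed transcripts AK137302 (0.92, SE 0.14) and NAP033385-1 (0.96, SE 0.23) were not (adjusted p = 0.0825, 0.325, 0.265 and 0.346).

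Several of the largest falls lay outside the known activity-regulated lists. Capsl, a calcium-binding calcyphosine-like protein of ciliated cells, read 1.24, 2.44, 2.77, 2.24 and 2.63 with AP5 and 4.55, 4.70, 4.63, 4.51 and 4.58 with NVP. The NVP arrays were close together and the AP5 arrays widely spread, with array 1 lowest, and the groups did not overlap. The difference was −2.33 (SE 0.21, limma adjusted p = 8.08e-07) and −2.07 without AP5 array 1 (adjusted p = 2.15e-08). It was the only called member among 6 tested ependymal and choroid markers (16.7%, beside 5.78% of all genes), whose median was 0.07. Col22a1, a collagen of tissue junctions (−1.83, SE 0.21), Thsd4, a matrix protein with thrombospondin repeats (−1.83, SE 0.25), and the transcript ENSMUST00000067087 (−1.81, SE 0.29) likewise had AP5 array 1 as the lowest array. Their differences without that array were −1.62, −1.5 and −1.51, all still called. Of these 3, Col22a1 was called with slide as a block (adjusted p = 0.00119; 0.0757 and 0.115 for the other two). Tcim, a transcriptional and immune response regulator, read −3.46, −3.03, −3.25, −3.12 and −2.87 with AP5 and −1.37, −1.94, −1.54, −1.70 and −1.17 with NVP (−1.60, SE 0.16, adjusted p = 3.21e-06), without overlap. Grp, the gastrin-releasing peptide, had AP5 values of 1.48, 4.08, 4.02, 4.38 and 4.66, and AP5 array 1 was far below the rest, while AP5 array 5 overlapped the lowest NVP array. Its difference was −1.66 (SE 0.47, adjusted p = 0.0388) and −1.10 without that array (adjusted p = 0.054); the call was also lost without AP5 array 3 or NVP array 1, 2, 3 or 5, and with slide as a block (adjusted p = 0.253). Of 22 neuropeptide and granin genes 3 were called lower and 0 higher (13.6%, beside 5.78% of all genes), namely Grp, Pcsk1 and Adcyap1. Without AP5 array 1 it was 1.

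Ifi203, Ifi204 and Ifi205, 3 genes of the interferon-inducible p200 family of DNA sensors, were called lower with AP5. Ifi203 read −2.19, −2.46, −2.96, −2.83 and −2.98 with AP5 and −0.44, −0.32, −0.36, −0.39 and −0.28 with NVP, and Ifi205 read −2.31, −2.06, −2.45, −2.71 and −2.56 and −0.58, −0.73, −0.69, −0.64 and −0.61. In neither gene did the groups come near each other. The differences were −2.32 (SE 0.13, limma adjusted p = 1.53e-09; 5.10e-05 with slide as a block) for Ifi203 and −1.77 (SE 0.09, adjusted p = 2.16e-10; 7.71e-05) for Ifi205. Ifi204 was lower, at −0.67 (SE 0.08, adjusted p = 1.71e-05; 0.0419), with 3 probes lower and 1 called. Since these genes are close relatives, a probe may read more than its own transcript. Over the 26 tested interferon-stimulated genes that hold these 3, the median was 0.17 and 15.4% were called, beside 5.78% of all genes. Without AP5 array 1 there were 0 called higher and 3 lower. The other called member was Ifit1, higher, at 0.45 (adjusted p = 0.0411), well above background on 3 AP5 arrays and 1 NVP array, and not called without AP5 array 1, 3, 4 or 5 or NVP array 1, 2, 3 or 4, nor with slide as a block (adjusted p = 0.176).

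Of 18 tested NF-kB and inflammatory genes 4 were called lower and 0 higher (22.2%, beside 5.78% of all genes). The counts were the same without AP5 array 1, and 3 were called with slide as a block. Relb, a subunit of NF-kB, read −1.96, −1.66, −1.90, −1.71 and −1.40 with AP5 and −0.28, −0.34, −0.45, −0.27 and −0.37 with NVP. Its AP5 arrays were all below its NVP arrays, and the difference was −1.39 (SE 0.09, limma adjusted p = 5.78e-09; 4.35e-04 with the block). Tnfaip3, the ubiquitin-editing inhibitor A20, differed by −1.09 (SE 0.07, adjusted p = 1.16e-08). The inhibitor genes Nfkbie (−0.58, adjusted p = 1.64e-06) and Nfkbib (−0.31, adjusted p = 6.91e-04) were lower as well, and Nfkbib was not called with the block (adjusted p = 0.122). The 14 members that did not pass included the NF-kB subunit genes Nfkb1 (0.02), Nfkb2 (−0.06) and Rela (−0.08) and the inhibitor gene Nfkbia (−0.27). The median of the 18 was near 0 (−0.05) and was positive with median centring, without the filter on dim probes and with slide as a block.

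Apoptosis and FOXO target genes were called mostly in the other direction, 7 higher and 1 lower of 28 (28.6%, beside 5.78% of all genes). Their median was 0.12, and without AP5 array 1 there were 8 higher and 1 lower. Bid, a BH3-only protein cleaved by caspases, read −0.50, −0.49, −0.44, −0.50 and −0.44 with AP5 and −1.26, −1.13, −1.17, −1.24 and −1.02 with NVP. The arrays within each group were close together, and the difference of 0.69 (SE 0.06, limma adjusted p = 5.50e-07) was called with slide as a block too (adjusted p = 0.00204). Bbc3, which encodes Puma, read 1.70, 1.45, 1.44, 1.43 and 1.19 with AP5 and 0.74, 0.61, 0.68, 0.89 and 0.53 with NVP, a difference of 0.75 (SE 0.11, adjusted p = 2.13e-04). Pmaip1, which encodes Noxa (0.72, adjusted p = 5.47e-05), and Apaf1, the core of the apoptosome (0.60, adjusted p = 2.33e-04), were higher as well, and these last 3 were not called with the block (adjusted p = 0.0615, 0.0776 and 0.0581). The other called members, picked after their values were seen, were Bmf (0.40), Sesn1 (0.32) and Casp9 (0.27), all higher, and Bcl2l1, which encodes the survival protein Bcl-xL and was lower (−0.26, adjusted p = 0.0101). Bax (−0.16) and Foxo1 (−0.31) did not pass.

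Clock and PAR bZIP genes included 5 called higher and 0 lower among 19 (26.3%, beside 5.78% of all genes), with a median of 0.07. Without AP5 array 1 there were 4 and with slide as a block 1. Tef, a PAR bZIP transcription factor, read 1.33, 1.09, 0.94, 0.92 and 0.98 with AP5 and 0.31, 0.37, 0.16, 0.24 and 0.25 with NVP (0.79, SE 0.09, limma adjusted p = 2.96e-05; 0.0268 with the block). The groups did not overlap, although 1 of its 3 probes was called. Ciart, a repressor of the clock (0.51, adjusted p = 7.09e-04), Cry1 (0.37, adjusted p = 0.00189) and Nfil3 (0.29, adjusted p = 0.0151, lost without AP5 array 3) were higher, and these 3 were not called with the block (adjusted p = 0.215, 0.0791 and 0.252). The core genes Clock (0.10), Arntl (0.20) and Per2 (−0.29) did not pass.

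Of 45 cell cycle genes tested, 15 were called lower with AP5, 0 higher and 30 not called. The called share was 33.3%, beside 5.78% of all genes, and the median was −0.28. A difference below 0 was measured in 44 of the 45, and in 50.4% of all genes tested. Their mean ranged from −2.52 to −2.40 on AP5 arrays, from −2.25 to −2.02 on NVP arrays and from −2.18 to −1.92 on control arrays. All AP5 arrays were thus below all NVP arrays. Without AP5 array 1, 13 were called lower, and with slide as a block 0 were called while the median was −0.26; with median centring it was −0.13. Ccna2, the cyclin of S and G2 phase, read −2.59, −2.67, −2.79, −2.57 and −2.73 with AP5 and −2.22, −2.13, −1.92, −2.12 and −2.27 with NVP (−0.54, SE 0.09, limma adjusted p = 0.00101). The replication licensing genes Cdt1 (−0.44, adjusted p = 0.00274) and Mcm2 (−0.38, adjusted p = 0.00495) and the ubiquitin-conjugating enzyme Ube2c (−0.40, adjusted p = 0.00324) were lower as well. Mki67, the usual marker of proliferating cells, differed by −0.53 and did not pass (SE 0.18, adjusted p = 0.0988), though it did without AP5 array 1 (−0.63, adjusted p = 0.049).

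Of 166 markers of neural, vascular, immune and connective cell types, 6 (3.61%) were called, beside 5.78% of all genes. Of 25 astrocyte markers and 27 reactive astrocyte genes 0 were called, with medians of 0.02 and 0.03; without AP5 array 1 the astrocyte median was 0.22 with 1 marker called higher. The astrocyte mean ranged from 2.31 to 3.54 with AP5 and from 2.85 to 3.43 with NVP. Gfap, the astrocyte filament gene, spread widely within both groups, from 2.82 to 6.58 with AP5 and from 3.56 to 6.30 with NVP, and its difference of 0.18 had an SE of 0.65 (95% interval −1.17 to 1.53). Array 5 held the highest Gfap value in both groups. Of 18 pan-neuronal, 13 oligodendrocyte and 12 endothelial and pericyte markers 0 were called. A single marker was called higher among 13 excitatory neuron markers (Wfs1, 0.48), 17 inhibitory neuron markers (the transcription factor Dlx2, 0.59), 13 microglia and macrophage markers (the receptor Csf1r, 0.49), 14 fibroblast and meningeal markers (Fbln1, 0.58) and 12 radial glia and neural stem cell markers (Cd24a, 0.49). The calls of Wfs1 and Dlx2 were lost without AP5 array 1 (adjusted p = 0.0781 and 0.0833), and those of Wfs1, Dlx2 and Fbln1 also without several other arrays. None of these 5 was called with slide as a block. With AP5 array 1 left out, 1 marker was called higher in the excitatory, microglia, fibroblast and radial glia lists each, that of the excitatory list not being Wfs1, and 0 in the inhibitory list. The array means of AP5 and NVP overlapped for all 11 marker lists. Without AP5 array 1 those of the fibroblast and meningeal list did not, at −2.67 to −2.62 with AP5 and −2.94 to −2.73 with NVP. The part of cell composition in the differences above was not tested.

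**Figure D4:**
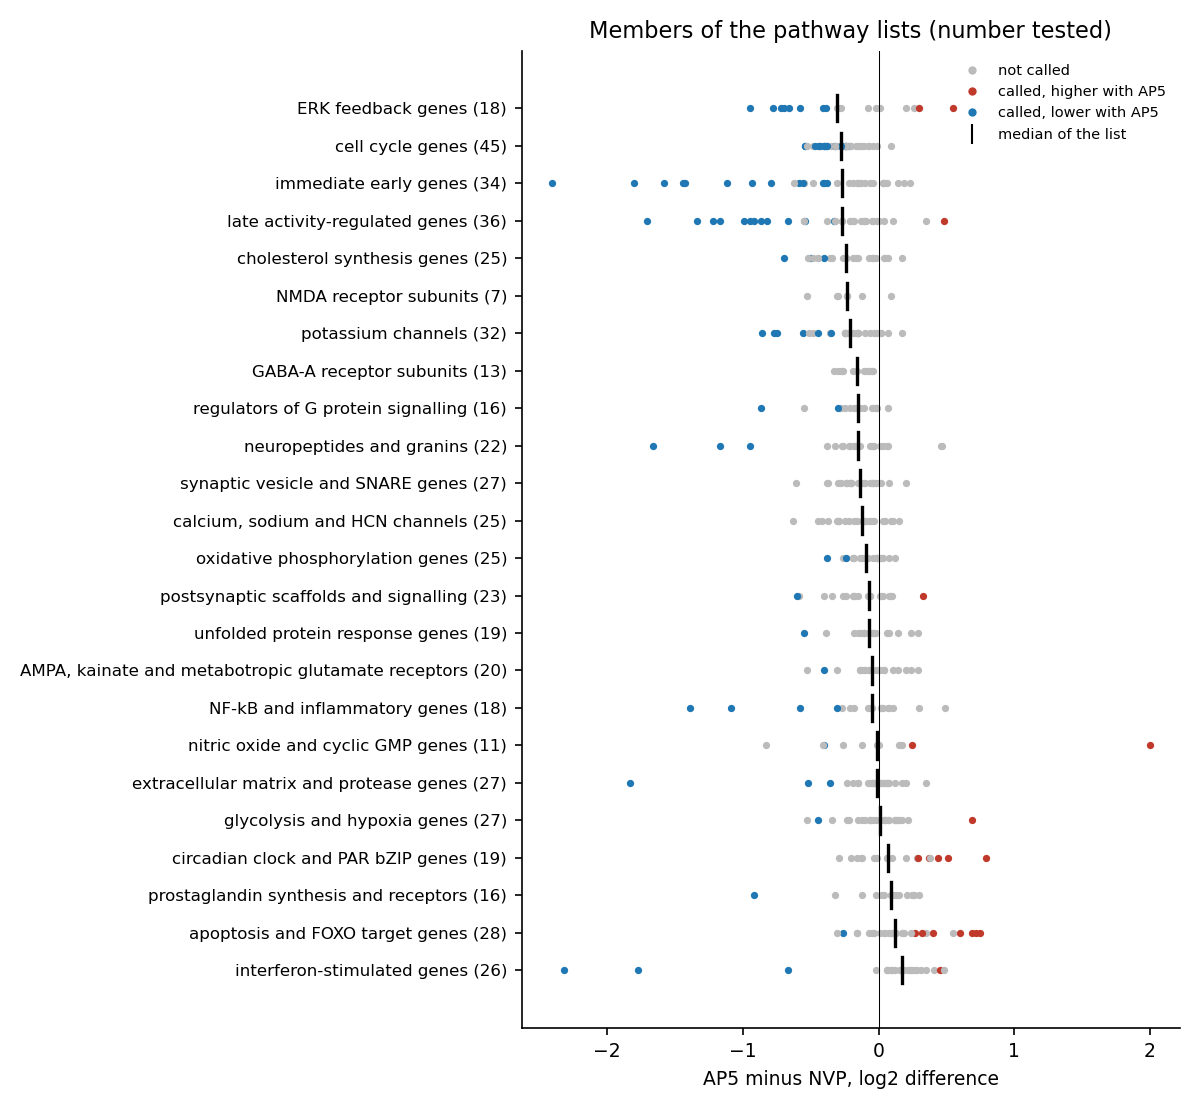
Difference between AP5 and NVP (log2, x axis) for each tested member of the 24 pathway lists, 1 point per gene, coloured by call, with the median of the list as a black bar and lists ordered by it. ERK feedback, cell cycle and immediate early genes have the lowest medians, the Nos1 point at 2.00 stands alone in the nitric oxide list, and the interferon list has a positive median beside its 3 low p200 genes.

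Of 86 named genes called, 30 were called with slide as a block and 32 with median centring, and all 86 kept their direction in both. Arc, Capsl, Ifi203, Ifi205, Col22a1, Nr4a1, Egr3 and Relb were among the 30, and Nos1 and Ly6g6e among the rises. Of the genes called with the block, Bid, Itpka, Fam107b, Egr1, Tef, Rgs2, Plk3, Nfkbie and Ifi204 were not called with median centring. Within slide 2 alone, AP5 array 5 against NVP arrays 2, 3 and 4 gave −2.42 for Arc, −1.49 for Nr4a1, −0.94 for Bdnf and 1.66 for Nos1, values with no test because a single AP5 array carries them. Fos stood at 0.50 and Gfap at 1.90 in that slide. For both genes array 5 was the highest array of each of the 4 groups, so within slide 2 compound and array number cannot be told apart. NVP array 5 lay on another slide. There Fos stood at −1.75 and Gfap at 6.30, against −2.42 and 6.58 on AP5 array 5.

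**Figure D5:**
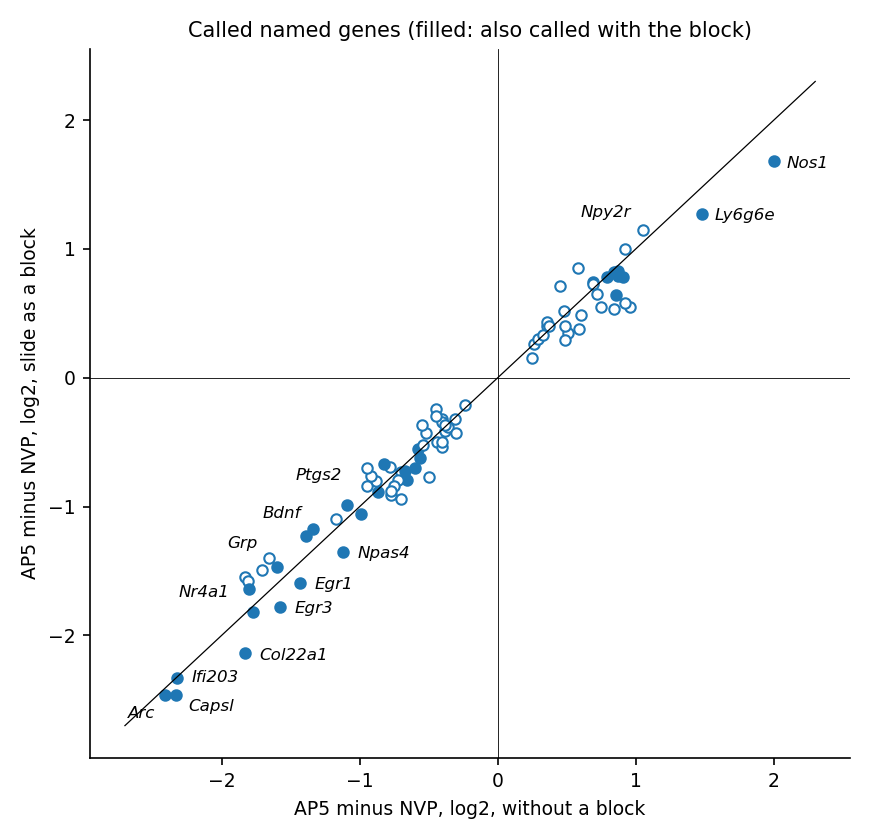
AP5 minus NVP (log2) of the 86 called named genes without a block (x axis) and with slide as a block (y axis), with the line of equality; filled points are the 30 genes also called with the block. All points keep their sign, Arc, Capsl and Ifi203 lie lowest on both axes and Nos1 highest.

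Differences from control are given for 8 genes chosen here for their large difference between the compounds. NVP minus control was −0.23 for Arc, −0.52 for Nr4a1, −0.41 for Npas4, −0.26 for Bdnf and −0.40 for Ptgs2, where AP5 minus control was −2.65, −2.31, −1.53, −1.61 and −1.32. None of these 5 NVP values passed across all genes (limma adjusted p of 0.872, 0.484, 0.511, 0.834 and 0.484). For Nos1 NVP minus control was 0.22 against 2.22 with AP5, for Relb 0.01 against −1.38 and for Ifi203 −0.02 against −2.35. These differences share the control arrays, and the test of how far the compounds differ is the direct one given above.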

How the data were processed

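The authors deposited scanner output of 2-colour Agilent arrays, per the file headers from Feature Extraction 10.7.3.1 (the submitters' processing notes name version 11.0). The deposited intensities are linear spot brightness from that software, per the file headers, with array medians between 142 and 185 (red) and between 115 and 138 (green). The deposited LogRatio, per the file headers the log10 of red over green processed signal, was used to find the scale and direction of the series table. Per the labels, samples were in Cy5 and a universal mouse reference in Cy3, without dye swap. The deposited series table holds log2 ratios and served as an alternative; it followed the scanner ratios with slopes of 0.834 to 0.858, its normalization not being stated.

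Intensities were corrected with normexp (offset 50), normalized by loess within arrays, and analysed with limma 3.58.1 in R 4.3.3 (data.table version 1.17.8) as 4 group means over 20 arrays (lmFit, eBayes, residual df 16, prior df 3.67), two-sided, Benjamini-Hochberg at 0.05. Probes had to be well above background (red) on 5 arrays or more, and each gene was read from its brightest probe. Probes were named through RefSeq (GRCm38.p6), and 8161 of 41174 kept the file's name. Slide and scan day came from the headers. Limma was tested on simulated data first.

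The comparison, the 35 gene lists (744 genes, 687 tested) and the rule for named genes were chosen with earlier results of these data known. The rule took the 12 largest called rises and falls above background on at least 3 arrays of both groups, up to 4 bounds each way, 16 preselected genes and up to 4 called members per list. Numbers in the titles were not taken to pair the arrays: deviations of same-numbered AP5 and NVP arrays correlated at −0.01, −0.23, −0.08, 0.20 and 0.64. Arrays numbered 5 did share features, among them the highest reactive astrocyte mean and the lowest cholesterol synthesis mean of each of the 4 groups. The reactive astrocyte mean was −1.48 with AP5, −1.53 with NVP, −1.49 with Ro25 and −1.43 with control. In the same order the cholesterol synthesis mean was −0.08, 0.10, 0.08 and 0.17. A source shared by same-numbered arrays was not tested. Alternatives were other normalizations, filters, probes, batches and leaving out each array. The number of arrays limits the precision.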

Additional observations from a re-analysis of the deposited data

Results flagged for a closer look

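In each of 184 groups of 5 arrays (the 92 named genes with AP5 and with NVP), the array farthest out was compared with the rest, and in 14 groups its gap to the nearest array took up a larger part of the whole range than Dixon's 95% critical value allows. Chance gives about 1 in 20 such groups, and 7 of the 14 were AP5 and 7 NVP groups.

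AP5 array 1 was the array set apart in 5 of the AP5 groups. It was low for Rasl11b at 2.98 (others 3.69 to 3.95), for Grp at 1.48 (others 4.02 to 4.66) and for Kcnh3 at 0.35 (others 0.75 to 0.88). It was high for Fam107b at 0.27 (others −0.05 to 0.04) and for Pbp2 at −0.40 (others −1.04 to −0.88). AP5 array 5 was high for Fos at −2.42 (others −3.53 to −3.21) and low for Nsdhl at −0.56 (others −0.38 to −0.33).

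Among the NVP groups, array 5 was apart for 4 genes. It was high for Dusp6 at 0.19 (others −0.13 to −0.04) and Atf4 at −1.25 (others −1.74 to −1.63), and low for Col4a1 at −2.31 (others −2 to −1.90) and Ndufv1 at 0.22 (others 0.33 to 0.36). NVP array 3 was low for Upf2 at −1.47 (others −1.37 to −1.34) and Thsd4 at 3.86 (others 4.17 to 4.25), and NVP array 1 was high for Rgs2 at 1.38 (others 0.97 to 1.09). The Grp call was lost without AP5 array 1.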

How the results depend on the processing

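The count of 1118 called genes was between 969 and 1187 with an offset of 16, the scanner's processed signals (1014), the deposited value table (1132), a filter at 10 arrays or no filter, a random slide block and the mean of a gene's probes. It was 841 with only the 10 arrays compared, 634 on the first scan day (338 higher, 296 lower), 121 with median centring in place of loess (37 higher, 84 lower) and 108 with slide as a fixed block (34 higher, 74 lower). The higher share of calls was 46.5% in the main setting, 53.8% with the value table, whose tested genes differ (15114), and 30.6% with median centring. Leaving out single arrays gave 748 (without NVP array 2) to 1340 (without NVP array 5), and all 1118 kept their direction in each. With the replicate number as a block, 1179 genes were called, 1020 of them shared. Fos (−0.55, limma adjusted p = 0.0115) and Mki67 (−0.53, adjusted p = 0.0114), uncalled without it, were called. The numbers were not taken as a pairing, since 1 of 5 AP5 arrays correlated best with its own number. Arrays numbered 5 nevertheless shared features, and Mki67 was lowest on that array in every group. The Ptgs2 difference was −0.89 with median centring, no longer called, and −0.76 with the slide block, also not called, and between −0.87 and −0.97 without single arrays. Of 86 called named genes, 32 were called with median centring, 30 with the slide block, 67 on the first scan day and 69 to 83 without single arrays, and 0 turned. Among uncalled ones, Fos turned to 0.16 with the slide block, Gfap to −0.01, −0.16 and −0.19 without AP5 array 3, AP5 array 5 and NVP array 4 (highest 0.78, without AP5 array 1), and Grin2b to 0.011 with median centring and to 0.0071 and 0.037 without AP5 array 1 and NVP array 4 (lowest −0.25, without NVP array 3). Of 35 list medians, 15 kept their sign in every setting, among them the immediate early, late, ERK feedback and cell cycle lists. The causes were not tested.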

Other observations

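Among further lists, the share of members called was 12% for cholesterol synthesis, 11.1% for matrix and 12.5% for regulators of G protein signalling, beside 5.78% of all genes tested. It was nearer to that share for oxidative phosphorylation (8%), glycolysis and hypoxia (7.41%) and the unfolded protein response (5.26%). Of 25 cholesterol synthesis genes 3 were called lower and 0 higher with AP5, with a median of −0.24: the sterol dehydrogenase Nsdhl (−0.40, limma adjusted p = 0.0152), the sterol carrier Stard4 (−0.70, adjusted p = 0.019) and Hmgcs1, which makes the precursor of mevalonate (−0.50, adjusted p = 0.0291). All 3 calls were lost without NVP array 2, and those of Stard4 and Hmgcs1 without several other arrays. The mean of this list was lowest on array 5 in every group. With the replicate number as a block all 3 genes were called (limma adjusted p = 5.05e-04, 0.012 and 0.0026). Of 27 extracellular matrix and protease genes 3 were called lower, Col22a1 beside the protease Adamts1 (−0.52, adjusted p = 0.0221) and the basement membrane collagen Col4a1 (−0.36, adjusted p = 0.0241), the latter 2 lost without NVP array 1 or 4 among others. Of 25 oxidative phosphorylation genes 2 were lower, Cycs, which encodes cytochrome c (−0.38, adjusted p = 6.24e-04), and the complex I gene Ndufv1 (−0.24, adjusted p = 0.0291, lost without AP5 array 1 among others). Of 19 unfolded protein response genes 1 was lower, the transcription factor Atf4 (−0.55, adjusted p = 0.00455). Of 27 glycolysis and hypoxia genes, Ndrg1 was higher (0.69, adjusted p = 0.00397) and the oxygen sensor Egln3 lower (−0.45, adjusted p = 0.042, lost without AP5 array 1 and without any of 7 others). Of 16 regulators of G protein signalling, Rgs19 was lower beside Rgs2 (−0.30, adjusted p = 0.0365, lost without AP5 array 1 among others). Of the genes in this paragraph, Col22a1 and Rgs2 were called with slide as a block and the other 11 were not. Leaving out AP5 array 1 gave 3 lower for cholesterol synthesis, 3 lower for matrix, 1 lower each for oxidative phosphorylation, the unfolded protein response and regulators of G protein signalling, and 1 higher and 0 lower for glycolysis and hypoxia.

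Next to Npas4, the 3 largest bounds among called genes were of genes well above background on 5 of 5 NVP arrays and on 0 AP5 arrays. Pbp2, a phosphatidylethanolamine-binding protein, was at least 1.84-fold lower with AP5 (limma adjusted p = 0.00274), and the transcript BB200491 (adjusted p = 0.00297) and the lipase gene Pnlip (adjusted p = 1.10e-04) at least 1.61-fold. Of the 2 Pnlip probes 1 was lower, and none of the 3 genes was called with slide as a block (adjusted p = 0.182, 0.105 and 0.0656). In the other direction, the transcript AK079958 (adjusted p = 0.00807) and the zinc finger gene Zfp750 (adjusted p = 0.0174, lost without AP5 array 3 or NVP array 2) were at least 1.29-fold higher with AP5, on 5 AP5 arrays and 0 NVP arrays above background. These bounds leave out sampling error, and the 95% intervals of the 2 fitted differences were 0.20 to 0.53 and 0.18 to 0.55. NAP071342-1 was at least 1.13-fold higher (adjusted p = 0.0302, lost without any of 5 arrays). AK079958, Zfp750 and NAP071342-1 were not called with slide as a block (adjusted p = 0.223, 0.159 and 0.33). The AP5 and NVP values overlapped for AK079958, NAP071342-1 and BB200491.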
